A study of Mus musculus with 6 samples.

Results

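Slc2a1, which encodes the glucose transporter GLUT1, and 9 enzymes of glycolysis were described in the mouse retina after NMDA injury, with and without stem cell factor. The 10 genes (Slc2a1, Hk1, Hk2, Pfkl, Aldoa, Aldoc, Eno1, Eno2, Pkm and Ldha) were taken by symbol, and 10 of 10 had values above 0 in every library. They are 10 of the 25202 genes that any library measured above 0. Values are FPKM, fragments per kilobase of transcript and per unit of library depth, summed for each gene over the transcripts that every library lists. The values of a group follow the order of its replicates 1, 2 and 3. All 10 genes had a mean FPKM of at least 1, so none was lost to a filter on low values.

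Wild-type mice (C57BL/6 by the labels, C57BL/6J in the study's methods) were of postnatal week 5 by the labels. The study's methods give a younger age at the start. The mice received NMDA (an agonist of glutamate receptors that injures retinal ganglion cells, 100 mM, 2 μl) in the vitreous. A second injection 2 days later gave either PBS (NMDA + PBS, 3 libraries) or recombinant SCF, the ligand of c-kit (50 ng/μl; NMDA + SCF, 3 libraries). Retinal mRNA was studied 1 week after SCF treatment, and no uninjured retina was analysed here. The number of mice behind a library is not given in the sources used here, so p-values measure the spread between libraries, which may be technical.

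Glycolysis turns glucose into pyruvate, and lactate dehydrogenase can then reduce the pyruvate to lactate. The retina is known for making lactate from glucose even when oxygen is present, and photoreceptors are its main users of glucose. Many steps have several isozymes, encoded by different genes and favoured by different cells, such as Hk2 in photoreceptors, Eno2 in neurons and Aldoc in glia.

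The tissue label was checked against markers. All 14 of 14 rod markers had values, with summed FPKM of 10137, 7779 and 8175 in NMDA + PBS and of 9783, 8677 and 8938 in NMDA + SCF. Rom1, a disc rim protein of photoreceptors, had the highest mean of these (3868 FPKM). Of the Müller glia markers, 9 of 10 had values (Glul highest), with sums of 5472, 5570 and 4095 FPKM in NMDA + PBS and of 5489, 6102 and 6240 FPKM in NMDA + SCF. These groups overlapped, but 1 of the markers, Dkk3, differed between the transcript lists described next, at 980 FPKM in NMDA + PBS replicate 2, 1007 FPKM in replicate 3 and at most 0.262 FPKM in the other libraries. Without Dkk3, a gene chosen after its values were seen, the Müller glia sums were 5472, 4590 and 3088 FPKM in NMDA + PBS and 5488, 6102 and 6240 FPKM in NMDA + SCF, higher in NMDA + SCF without overlap by a narrow distance. The part of Müller glia in the results was not tested. Retinal ganglion cell markers (8 of 9 with values) summed to between 266 and 471 FPKM. Without Nefh, which also differed between the lists and was chosen after its values were seen, they summed to between 227 and 464 FPKM. The groups overlapped with and without it. Pou4f1, a defining marker of ganglion cells, and Aqp4 of Müller glia were the genes without a value. These are whole-tissue values, in which fewer cells of a type and less RNA per cell cannot be told apart.

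A pair of libraries stood apart before any comparison of treatment. Transcripts come from 2 different lists in these libraries, here called list A, for NMDA + PBS replicate 1 and the NMDA + SCF libraries, and list B, for NMDA + PBS replicates 2 and 3. On the first principal component, with 53.3% of the variance, NMDA + PBS replicate 1 lay at 35.9 and the NMDA + SCF libraries between 40.1 and 45.2. NMDA + PBS replicates 2 and 3 lay at -68.6 and -94.9. List B holds NMDA + PBS libraries only, so list and treatment can be separated only against NMDA + PBS replicate 1, a single control library. Member results are therefore also given from a fit with the list as a term, which compares NMDA + SCF with NMDA + PBS replicate 1 alone and is used as a value without a test.

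Other library values moved with treatment. Mitochondrial genes took 23.4, 16.9 and 20.9% of the FPKM in Ensembl transcripts of both lists in NMDA + PBS and 12.3, 11.9 and 12.3% in NMDA + SCF. Lens markers (14 of 15 with values, Crygs the most abundant) summed to 24.3, 194 and 319 FPKM in NMDA + PBS and to 5529, 480.0 and 10439 FPKM in NMDA + SCF. Neither set of values overlapped between the groups. Bfsp1 was the lens marker without a value. Bipolar cell markers (6 of 8, Prkca highest) summed to 282, 254 and 291 FPKM in NMDA + PBS and to 296, 303 and 322 FPKM in NMDA + SCF, and cornea markers (3 of 5, Krt5 highest) to 13.1, 18.7 and 46.3 FPKM and to 3.13, 5.37 and 11.98 FPKM. Bipolar sums were higher and cornea sums lower in NMDA + SCF without overlap, and the part of these lists in any result below was not tested.

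For the remaining marker lists the groups overlapped. Cones (6 of 8 markers with values) summed to 58.6 to 97.6 FPKM, amacrine cells (8 of 8) to 203 to 298 FPKM and horizontal cells (4 of 5) to 55.6 to 79.5 FPKM. Endothelium (6 of 7) summed to 103 to 135 FPKM and pericytes (3 of 3) to 76.7 to 97.7 FPKM. Without Flt1, which differed at least 2-fold between the lists and was chosen after its values were seen, endothelium summed to 39.1 to 112 FPKM. NMDA + PBS replicate 3 was then the lowest library, and the groups still overlapped. Pigment epithelium (9 of 9, Ttr highest) summed to 228 to 1050.5 FPKM, erythrocytes (3 of 5) to 26.4 to 235 FPKM and microglia (6 of 9) to 62.6 to 332 FPKM. NMDA + PBS replicate 3 was the lowest library for each of these last 3 lists. Fragments recovered from the FPKM values numbered between 3404336 and 4440581 per library, the highest in NMDA + PBS replicate 3.

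The transcripts behind the summed values differed in kind between the 10 genes. Of 63 Ensembl transcripts of these genes, 52 were in both lists and entered the sums, and 11 were in 1 list only. Coding transcripts of the GENCODE basic set, here called full-length although some of them start inside the gene, made up over 50% of the FPKM sum for 4 genes, Slc2a1, Hk2, Aldoc and Pkm. Transcripts that keep an intron made up over 50% for 3 genes, Pfkl (81.4%), Aldoa (92.4%) and Eno1 (75.6%). Over all genes, by comparison, basic coding transcripts held between 69.9 and 74.5% of the FPKM that a library had in Ensembl transcripts of both lists, and retained-intron transcripts between 5.84 and 9.92%. No basic coding transcript of Aldoa or Eno2 was in both lists. The summed value of such a gene is the level of the transcripts used, not of its full-length mRNA. How fragments were split between overlapping transcripts is not given in the sources used here.

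**Figure D1:**
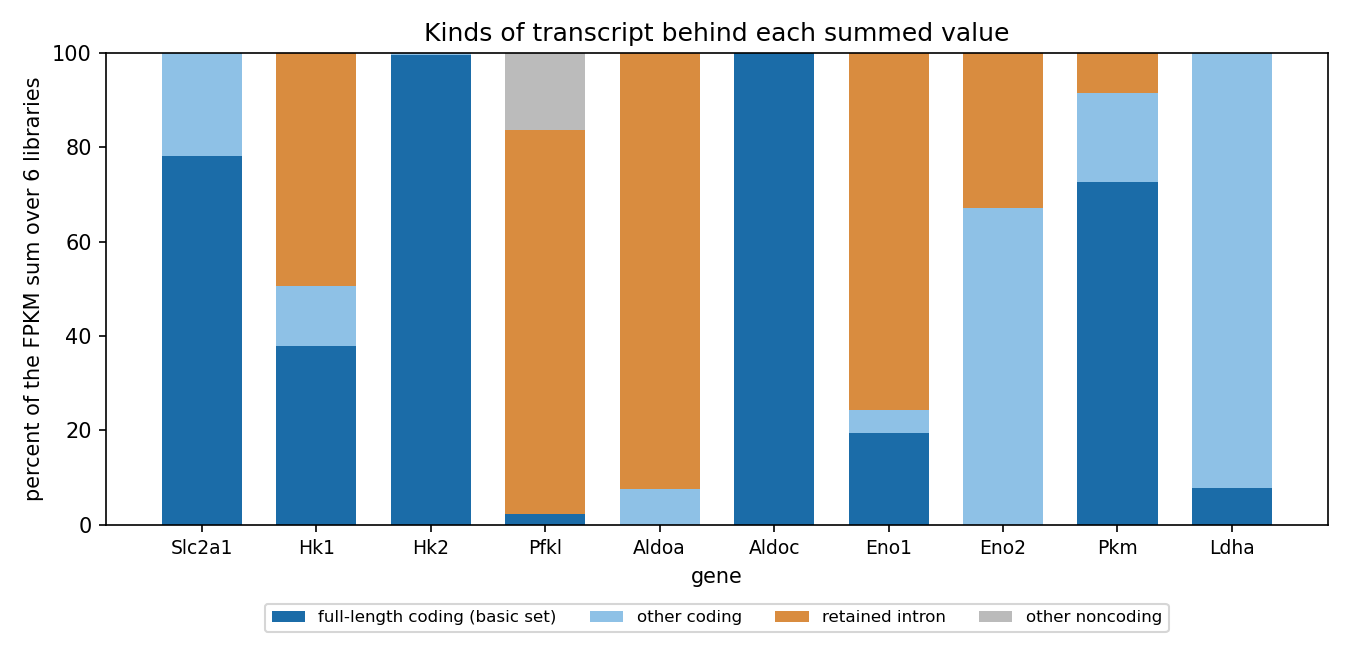
Percent of each gene's FPKM sum over the 6 libraries held by basic coding transcripts, other coding transcripts, retained-intron transcripts and other noncoding transcripts. Of the transcripts in both lists, those of Hk2 and the only one of Aldoc are full-length coding ones for 99.6 and 100% of FPKM, those of Aldoa and Pfkl mostly of retained-intron transcripts (92.4 and 81.4%).

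The levels spanned from Aldoc at 3.24 ± 0.90 FPKM to Pkm at 389 ± 99.3 FPKM (mean ± SD, n = 6 libraries). Between them, from high to low, stood Hk2, Eno1, Aldoa, Eno2, Pfkl, Ldha, Hk1 and Slc2a1. Pkm was above Hk2 in 6 of 6 libraries. Hk2 (147 ± 31.4 FPKM) and Eno1 (132 ± 37.7 FPKM) had means within 1 SD of each other over the 6 libraries, and their order followed the groups. Hk2 was the higher in 3 of 3 NMDA + PBS libraries and Eno1 in 3 of 3 NMDA + SCF libraries, a split seen after the fact and not tested. Aldoa and Eno2, and Hk1 and Slc2a1, also had means that lay closer than the larger SD of the pair, though the first of each was higher in 5 of 6 libraries. Every other neighbour in this order was higher than the next in 5 or 6 of 6 libraries, by more than the SD of either gene. Together the 10 genes took between 0.196 and 0.277% of the FPKM that a library had in the Ensembl transcripts of both lists, which leaves out those without a gene name and those of 1 list.

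**Figure D2:**
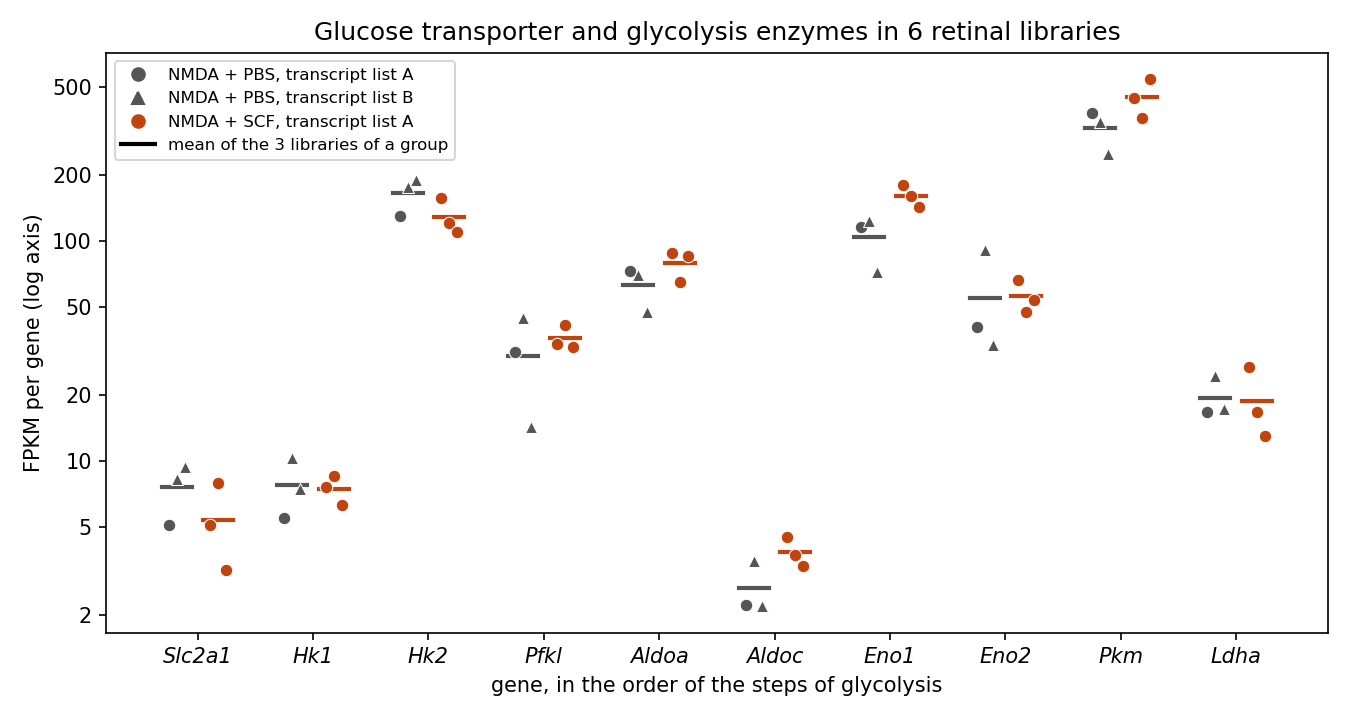
FPKM of the 10 genes in each library on a log axis, with the mean of each group as a bar; circles are libraries with transcript list A and triangles those with list B. Eno1 is the gene whose groups do not overlap (72.5 to 123 FPKM in NMDA + PBS, 142 to 180.5 FPKM in NMDA + SCF).

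Among the libraries, NMDA + PBS replicate 3 had the lowest value for 6 of the 10 genes (Pfkl, Aldoa, Aldoc, Eno1, Eno2 and Pkm) and the highest for 2 (Slc2a1 and Hk2). NMDA + SCF replicate 1 was highest for 4 genes, and NMDA + SCF replicate 3 was lowest for 3. No library was the highest or the lowest for all 10 genes.

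Glucose enters through Slc2a1, the transporter GLUT1 of the blood-retina barrier and of glia. Its FPKM was 5.10, 8.30 and 9.38 in NMDA + PBS and 5.08, 7.94 and 3.21 in NMDA + SCF. The groups overlapped, and the NMDA + PBS libraries with list B were the highest of all. The log2 fold change of FPKM + 1, NMDA + SCF over NMDA + PBS as in all that follow, was -0.45 (SE 0.35, adjusted p = 0.688 in limma over all genes), and 0.0032 with the list as a term. With 1 library left out it ran from -0.73, without NMDA + SCF replicate 2, to -0.18, without NMDA + SCF replicate 3. The full-length Slc2a1-201 held 78.2% of the sum, on 32 to 128 recovered fragments per library for the gene.

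Slc2a3, which encodes the neuronal transporter GLUT3, had FPKM of 3.26, 9.33 and 5.06 in NMDA + PBS and of 8.80, 8.96 and 2.33 in NMDA + SCF. Slc2a1 was the higher in 3 of 6 libraries, and the mean log2 ratio of Slc2a1 to Slc2a3 was 0.14 ± 0.63 (SD, n = 6, two-sided exact sign-flip permutation p = 0.625). Summed levels of this pair therefore did not differ beyond their spread. Of the Slc2a3 FPKM only 0.973% came from its full-length transcript, which had 0 to 0.148 FPKM. The full-length Slc2a1-201 had 2.75 to 8.70 FPKM and was above it in 6 of 6 libraries, with no ratio formed since Slc2a3 was 0 in 3 libraries. Slc2a13, a carrier of myo-inositol, had the highest mean of the other 10 listed sugar transporter genes (15.2 FPKM).

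Hexokinase traps glucose in the cell as glucose 6-phosphate. Hk2, the isozyme of rods and of many proliferating cells, had FPKM of 131, 175 and 189 in NMDA + PBS and of 156, 121 and 110.1 in NMDA + SCF. NMDA + PBS replicates 2 and 3 were above every other library, while NMDA + PBS replicate 1 lay among the NMDA + SCF libraries. Hk2 had a log2 fold change of -0.35 (SE 0.22, adjusted p = 0.620 in limma), of -0.033 with the list as a term, and of -0.51 without NMDA + PBS replicate 1 (unadjusted p = 0.0398 in limma). Hk2 (chr6:82725025-82774454, minus strand, GRCm38) had 2088 to 4596 recovered fragments per library, nearly all of them on the full-length Hk2-201.

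Hk1, the isozyme most tissues share, had FPKM of 5.52, 10.3 and 7.47 in NMDA + PBS and of 7.62, 8.50 and 6.28 in NMDA + SCF. The NMDA + PBS libraries were both the lowest and the highest, and the NMDA + SCF libraries lay between them. Its log2 fold change of -0.02 (SE 0.27, adjusted p = 0.982 in limma) turned to 0.37 with the list as a term, 0.18 without NMDA + PBS replicate 2 and 0.08 without NMDA + SCF replicate 3. Hk2 exceeded Hk1 in 6 of 6 libraries by 19.3-fold (mean log2 ratio of Hk1 to Hk2 -4.27 ± 0.31, n = 6, exact sign-flip permutation, adjusted p = 0.0375 over 6 pairs of isozymes). With the full-length Hk1-202 and Hk2-201 in place of the sums the distance was 53.9-fold. Summed over the full-length transcripts used, it was 51.2-fold, with 3 of the 4 annotated for Hk1 and 2 of 2 for Hk2. This does not compare the whole full-length levels. Hk1-202 held 35.9% of the Hk1 sum and retained-intron transcripts 49.3%. Hkdc1, a gene beside Hk1 that encodes a related enzyme, stood between them with a mean of 11.6 FPKM. Hk3 had 0 to 1 fragments per library.

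Phosphofructokinase commits the sugar to glycolysis, and Pfkl encodes its liver-type subunit. Pfkl FPKM was 31.3, 44.8 and 14.2 in NMDA + PBS and 33.9, 41.4 and 32.8 in NMDA + SCF. The NMDA + SCF libraries lay within the range of the NMDA + PBS libraries, whose replicate 3 was far below the rest. For the sum, the log2 fold change was 0.38 (SE 0.39, adjusted p = 0.728 in limma), and 0.19 with the list as a term. With a library left out it ran from -0.062, without NMDA + PBS replicate 3, to 0.73, where NMDA + PBS replicate 2 was dropped.

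The full-length Pfkl-201 was scarce, with FPKM of 0.945, 1.35 and 0.664 in NMDA + PBS and of 0.548, 0.308 and 0.465 in NMDA + SCF. For this transcript the groups did not overlap and NMDA + SCF was the lower, opposite in sign to the summed value. Pfkp, the platelet-type subunit, was above Pfkl in 6 of 6 libraries (mean log2 ratio of Pfkl to Pfkp -0.90 ± 0.71, n = 6, exact sign-flip permutation, adjusted p = 0.0375). Its FPKM ranged from 39.2 to 74.4, of which 0.221% came from a full-length transcript. Among the full-length coding transcripts used the order was the opposite, with Pfkp at 0 to 0.326 FPKM and below Pfkl in 6 of 6 libraries. No ratio was formed since Pfkp was 0 in 2 libraries. Only 1 of the 2 basic coding transcripts annotated for Pfkp was used here, so this does not compare the whole full-length levels. Pfkm, the muscle-type subunit, had at most 2 fragments in any library, under the floor of 3, so it entered no ratio.

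Aldolase splits fructose 1,6-bisphosphate. Aldoa, the isozyme most tissues share, had FPKM of 72.8, 69.8 and 47.6 in NMDA + PBS and of 88.4, 65.1 and 85.4 in NMDA + SCF. The groups overlapped through NMDA + SCF replicate 2, which was below both NMDA + PBS replicates 1 and 2. Aldoa had a log2 fold change of 0.34 (SE 0.23, adjusted p = 0.646 in limma), of 0.11 with the list as a term, and of 0.15 without NMDA + PBS replicate 3. For the coding transcript Aldoa-211 alone, on 10 to 25 fragments per library, it was -0.073. Most of the Aldoa sum was the retained-intron transcript Aldoa-206 (34.5 to 61.8 FPKM). The full-length Aldoa-201 was in list A only, at 12.6 FPKM in NMDA + PBS replicate 1 and 7.92, 5.90 and 16.8 FPKM in NMDA + SCF.

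Aldoc, the isozyme of Müller glia and astrocytes, had FPKM of 2.21, 3.52 and 2.18 in NMDA + PBS and of 4.50, 3.71 and 3.32 in NMDA + SCF. The groups overlapped only through NMDA + PBS replicate 2, which lay between the NMDA + SCF libraries. Its log2 fold change was 0.43 (SE 0.29, adjusted p = 0.646 in limma) and 0.59 with the list as a term, on 21 to 43 fragments per library. Gfap, the most abundant of the astrocyte markers (3 of 3 with values), and the other markers of that list summed to 96.4, 281 and 43.6 FPKM in NMDA + PBS and to 117, 222 and 192 FPKM in NMDA + SCF. The library with the most Aldoc had the highest astrocyte sum in NMDA + PBS and the lowest in NMDA + SCF. The part of astrocytes and of Müller glia in the Aldoc level was not tested. Aldoc-201, the full-length transcript, is the only one in both lists. In list A the retained-intron Aldoc-205 was above it in all 4 libraries, at 9.78 FPKM in NMDA + PBS replicate 1 and 5.83, 8.13 and 11.1 FPKM in NMDA + SCF. The noncoding Aldoc-203 had 0 FPKM in NMDA + PBS replicate 1 and 6.18, 0.760 and 6.88 FPKM in NMDA + SCF.

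Aldoa exceeded Aldoc by 22.4-fold over the summed transcripts, in 6 of 6 libraries (mean log2 ratio 4.48 ± 0.33, n = 6, exact sign-flip permutation, adjusted p = 0.0375). The most abundant coding transcripts in both lists were Aldoa-211, outside the basic set, and the full-length Aldoc-201. Between these the log2 ratio was 0.72 ± 0.80 and Aldoa was higher in 4 of 6 libraries (exact sign-flip permutation, adjusted p = 0.156). With all listed transcripts, which adds those of list A alone, it was 3.25. Retained-intron transcripts held 92.4% of the Aldoa sum.

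Enolase makes phosphoenolpyruvate. Eno1 (chr4:150236721-150248879, plus strand, GRCm38), the isozyme most tissues share, had FPKM of 116, 123 and 72.5 in NMDA + PBS. It had 180.5, 159.9 and 142 FPKM in NMDA + SCF. Every NMDA + SCF library was above every NMDA + PBS library, and Eno1 was the only one of the 10 genes without overlap. The group means were 104 ± 27.4 and 161 ± 19.0 FPKM (mean ± SD, 3 libraries each).

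The log2 fold change of Eno1 was 0.66 (SE 0.24), with an unadjusted p = 0.0286 and an adjusted p = 0.536 in limma, so it did not pass the adjusted threshold. With the list as a term it was 0.46. The unadjusted p was 0.103, 0.0808 and 0.0507 in limma without NMDA + SCF replicates 1, 2 and 3, and 0.0338, 0.0301 and 0.0326 without those of NMDA + PBS. Without NMDA + PBS replicate 3 the log2 fold change was 0.42. With voom on recovered fragments the log2 fold change was 0.57, at an unadjusted p of 0.0119 and an adjusted p of 0.492 in limma. The adjusted p over all alternatives with a test ran from 0.235 to 0.752 in limma. With the mitochondrial genes removed and the libraries rescaled, the log2 fold change was 0.44 and the groups overlapped. The part of the lens markers, which also separated the groups, was not tested. Among the NMDA + SCF libraries, replicate 2 had a lens sum of 480.0 FPKM and an Eno1 level between those of the others.

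The separation of Eno1 lay in some of its transcripts. The retained-intron Eno1-203 had FPKM of 34.4, 21.2 and 19.3 in NMDA + PBS and of 56.7, 46.2 and 38.3 in NMDA + SCF. The retained-intron Eno1-211 had 33.3, 38.5 and 8.09 FPKM in NMDA + PBS and 67.3, 55.4 and 45.9 FPKM in NMDA + SCF. Neither overlapped between groups. The basic coding Eno1-201, which starts inside the gene at chr4:150243486, had 19.8, 27.2 and 26.8 FPKM in NMDA + PBS and 27.9, 25.2 and 24.8 FPKM in NMDA + SCF. For it the groups overlapped in most of their range, and the log2 fold change was 0.09. It was 0.38 against NMDA + PBS replicate 1 alone, the lowest library, and -0.055 without it. The basic coding Eno1-202, which spans nearly the whole gene, had 0.124 to 0.725 FPKM on 1 to 5 fragments, with overlapping groups. Fragments of Eno1 may also be shared with Eno1b, a gene of closely similar sequence (mean 3.28 FPKM).

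Eno2, the neuronal isozyme, had FPKM of 40.8, 90.6 and 33.6 in NMDA + PBS and of 66.8, 47.5 and 54.2 in NMDA + SCF. The NMDA + PBS libraries were the most spread, with replicate 2 above all others and the other 2 below all others. Eno2 had a log2 fold change of 0.15 (SE 0.37, adjusted p = 0.892 in limma), of -0.13 without NMDA + PBS replicate 3, and of 0.58 without NMDA + PBS replicate 2 (unadjusted p = 0.0386 in limma). It was 0.44 with the list as a term and -0.060 with mitochondrial genes removed. Eno1 exceeded Eno2 in 6 of 6 libraries (mean log2 ratio 1.27 ± 0.46, n = 6, exact sign-flip permutation, adjusted p = 0.0375). Between the most abundant coding transcripts, the basic coding Eno1-201 and Eno2-215 outside the basic set, the log2 ratio was 0.25 ± 0.50. Eno1 was higher in 5 of 6 libraries, which did not pass the threshold (exact sign-flip permutation, adjusted p = 0.281).

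Pyruvate kinase makes pyruvate. Pkm (chr9:59656368-59679375, plus strand, GRCm38) had FPKM of 382, 347 and 249 in NMDA + PBS and of 447, 363 and 544 in NMDA + SCF. NMDA + SCF replicate 2 was below NMDA + PBS replicate 1, and otherwise the NMDA + SCF libraries were the higher. Pkm had a log2 fold change of 0.47 (SE 0.25, adjusted p = 0.560 in limma), of 0.22 with the list as a term, and of 0.29 without NMDA + PBS replicate 3. It was 0.25 with mitochondrial genes removed. With voom on recovered fragments it was 0.73 at an unadjusted p of 0.0229 in limma, where the adjusted p over the alternatives with a test ran from 0.316 to 0.789. The libraries with list B were the lowest 2 of the 6.

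Pkm is spliced in alternative ways. A pair of exons of equal length exclude each other, the upstream one giving the M1 form, known from muscle and most neurons, and the downstream one giving the M2 form, known from photoreceptors and proliferating cells. The full-length M2 transcript Pkm-201 had FPKM of 288, 216 and 86.1 in NMDA + PBS and of 342, 296 and 464 in NMDA + SCF. On this FPKM scale its groups did not overlap, by a narrow distance between NMDA + PBS replicate 1 and NMDA + SCF replicate 2. The log2 fold change of Pkm-201 was 1.04, with no test of its own. It was 0.53 without NMDA + PBS replicate 3, the lowest library, and 0.32 against NMDA + PBS replicate 1 alone. It held between 34.6% (NMDA + PBS replicate 3) and 85.3% (NMDA + SCF replicate 3) of the Pkm sum.

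The full-length M1 transcript Pkm-202 was in list B only, at 0 FPKM in NMDA + PBS replicate 2 and 0.993 FPKM in replicate 3, and was not analysed here in the other libraries. The retained-intron Pkm-203, the other transcript with the M1 exon, had 2.11 FPKM in NMDA + PBS replicate 3, 0.391 in NMDA + SCF replicate 1 and 0 in the other libraries. The transcripts in both lists leave out Pkm-202, so they cannot compare the full-length forms. Among them, the M2 exon was in the one with nearly all of the FPKM that holds either exon. The other 8 Pkm transcripts hold neither exon. Among them the short coding Pkm-208 had 9.08, 28.3 and 31.6 FPKM in NMDA + PBS and 5.74, 4.04 and 4.06 FPKM in NMDA + SCF. It was lower in NMDA + SCF without overlap, as was Pkm-207, while Pkm-201 was higher.

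The exons are shown because they tell the forms of Pkm apart. The M1 exon lies at chr9:59675029-59675195 and the M2 exon at chr9:59675568-59675734 (plus strand, GRCm38, GENCODE M21 transcripts). Both are 167 bases long and 103 bases (61.7%) are identical. Capitals mark the 64 positions at which they differ.
Pkm M1 exon: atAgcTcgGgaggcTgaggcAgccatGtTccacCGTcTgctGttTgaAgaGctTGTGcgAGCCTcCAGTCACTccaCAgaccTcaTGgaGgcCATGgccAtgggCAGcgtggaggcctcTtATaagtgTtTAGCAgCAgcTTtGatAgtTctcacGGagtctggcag
Pkm M2 exon: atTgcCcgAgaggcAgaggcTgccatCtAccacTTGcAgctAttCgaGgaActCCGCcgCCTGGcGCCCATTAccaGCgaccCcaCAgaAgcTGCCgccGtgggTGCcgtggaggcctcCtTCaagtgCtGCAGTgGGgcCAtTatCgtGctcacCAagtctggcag

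**Figure D3:**
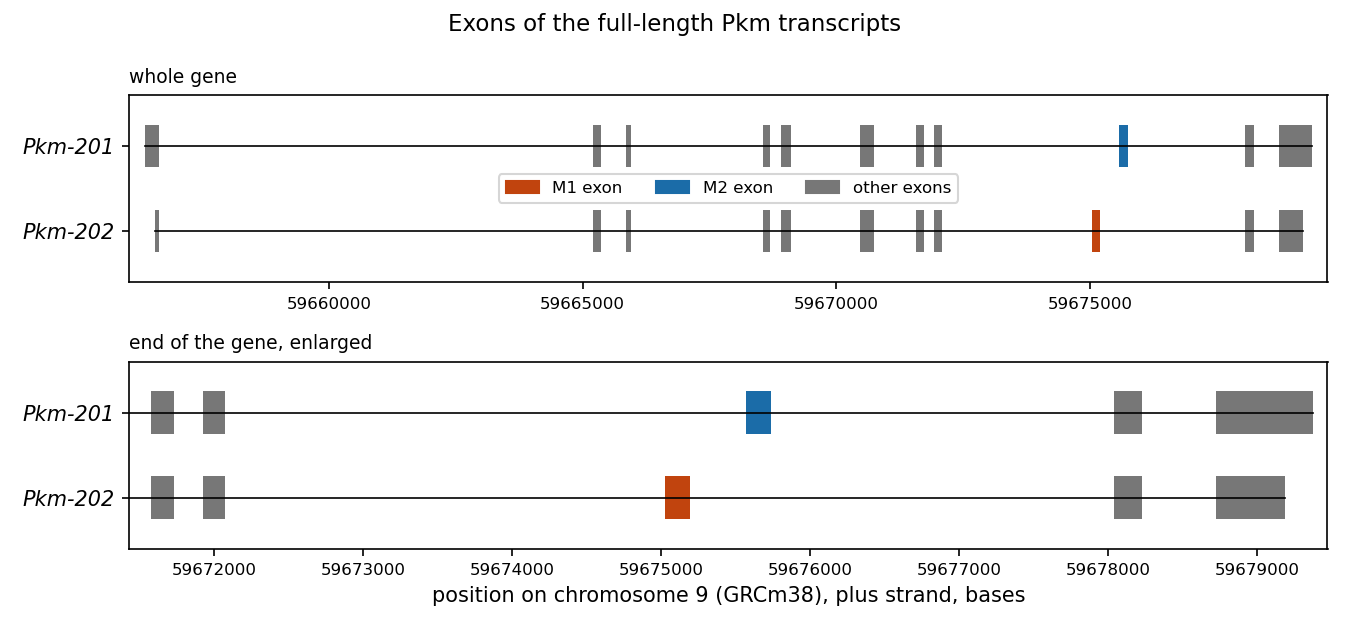
Exons of the full-length transcripts Pkm-201 and Pkm-202 along chromosome 9 (GRCm38, position in bases), with the end of the gene enlarged below. Pkm-201 (288 to 464 FPKM in the libraries with list A, 216 and 86.1 FPKM with list B) holds the M2 exon. Pkm-202 (0 and 0.993 FPKM with list B) holds the M1 exon.

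Lactate dehydrogenase turns pyruvate into lactate, and Ldha encodes its A subunit. Ldha FPKM was 16.7, 24.3 and 17.3 in NMDA + PBS and 26.7, 16.7 and 12.95 in NMDA + SCF. The groups overlapped over the whole NMDA + PBS range. Ldha had a log2 fold change of -0.09 (SE 0.29, adjusted p = 0.929 in limma), on 32 to 64 fragments per library. It turned to 0.10 with the list as a term, 0.08 without NMDA + PBS replicate 2 and 0.14 without NMDA + SCF replicate 3. With all listed transcripts, where those of list A count as 0 in list B, it was 1.18 (unadjusted p = 0.0284 in limma). Most of the level was the partial coding transcript Ldha-207 (9.33 to 21.7 FPKM).

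The only basic coding transcript of Ldha in both lists, Ldha-210, had FPKM of 0.809, 0.693 and 1.12 in NMDA + PBS and of 2.89, 1.90 and 1.43 in NMDA + SCF. Its groups did not overlap in FPKM, but NMDA + PBS replicate 3, the highest of its group, and NMDA + SCF replicate 3, the lowest of its group, both held 9 fragments, so these adjoining values differ in depth only. Ldha exceeded Ldhb, which encodes the B subunit, in 6 of 6 libraries (mean log2 ratio 3.09 ± 0.99, n = 6, exact sign-flip permutation, adjusted p = 0.0375). The ratio varied most in NMDA + SCF, from 1.48 in replicate 3 to 4.58 in replicate 1. Ldhb had 5 to 20 fragments per library. Among full-length coding transcripts Ldha was not the higher, with a mean log2 ratio of Ldha to Ldhb of -0.65 ± 1.30 (n = 6, exact sign-flip permutation p = 0.28125) and Ldha above Ldhb in 2 of 6 libraries. This leaves out 4 of the 5 basic coding transcripts annotated for Ldha, which were not used here, so it does not compare the whole full-length levels.

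None of the isozyme ratios was found to differ between NMDA + SCF and NMDA + PBS. The differences of mean log2 ratio over the 6 pairs ran from -0.63 for Slc2a1 to Slc2a3 up to 0.51 for Eno1 to Eno2. The two-sided exact permutation p was 0.2 for the first and 0.3 for the second, where 3 against 3 libraries cannot give less than 0.1. Adjusted over the 6 pairs, the exact permutation p was at least 0.6.

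For treatment as a whole, 0 of the 10 genes passed the thresholds of a 2-fold change and an adjusted p of 0.001 in limma, beside 0 of 25202 genes (0%). None passed an adjusted p of 0.05 either, and a p that misses a threshold does not show that values did not differ. Past an unadjusted p of 0.05 stood 1 of the 10, Eno1, higher in NMDA + SCF, beside 4.33% of all genes in that direction. None of the 10 was lower at this p, beside 4.9% of all genes. That split of all genes, 1090 higher and 1234 lower, was 643 and 1554 with upper quartile scaling, 753 and 1456 with median-of-ratios scaling, and 558 and 1562 without mitochondrial genes. Eno1 passed the unadjusted p under none of these 3.

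All NMDA + SCF values lay above all NMDA + PBS values for 1 of the 10 genes, where they did for 7.63% of all genes, and below them for 0 (6.45% of all genes). These shares of all genes were 4.41 and 8.30% with upper quartile scaling, 5.38 and 7.59% with median-of-ratios scaling, and 3.99 and 9.05% without mitochondrial genes. Eno1 was without overlap under both scalings and not without mitochondrial genes. The fitted log2 fold change was positive for 6 genes (Pfkl, Aldoa, Aldoc, Eno1, Eno2 and Pkm) and negative for 4 (Slc2a1, Hk1, Hk2 and Ldha). Their median was 0.24, beside -0.01 over all genes and 0.22 over the 4508 genes with a mean FPKM of at least 10. The median was -0.044 without NMDA + PBS replicate 3 and 0.03 without mitochondrial genes.

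Against NMDA + PBS replicate 1 alone, which shares list A, 5 of the 10 genes were higher in all 3 NMDA + SCF libraries (Hk1, Pfkl, Aldoc, Eno1 and Eno2), beside 23.8% of all genes. None was lower in all 3, beside 23.6% of all genes. In recovered fragments, NMDA + SCF replicate 3 was below NMDA + PBS replicate 1 for Hk1 (52 against 63) and Pfkl (88 against 92). The totals of these libraries were 3458475 and 3404336 fragments. For these genes the FPKM sum and the fragments thus gave different orders. This comparison has 1 control library and no test.

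Among the 52 single transcripts in both lists, 5 were higher in NMDA + SCF without overlap (Eno1-203, Eno1-211, Ldha-210, Pfkl-207 and Pkm-201), beside 6.32% of all transcripts. Another 5 were lower without overlap (Hk2-203, Pfkl-201, Pkm-206, Pkm-207 and Pkm-208), beside 6.79% of all transcripts. Some of these rest on few fragments. Hk2-203 had at most 2 in any library, Pfkl-207 at most 2 in NMDA + PBS, and Pkm-206 and Ldha-210 had the same number (4 and 9) in the adjoining libraries of the groups, which only depth sets apart. Transcripts of 1 gene went in opposite directions for Pkm and for Pfkl.

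Of 74 other listed genes of glucose metabolism, 63 had values, and 0 of them had an adjusted p of at most 0.05 in limma. Past an unadjusted p of 0.05 in limma stood 5 higher and 5 lower of the 63 in NMDA + SCF, beside 4.33 and 4.9% of all genes. All 5 lower genes (Tpi1, Bpgm, Pdha1, Dld and Hif1a) differed at least 2-fold between the lists, as did Pdk3 and Tigar of the higher. Against NMDA + PBS replicate 1 alone, the log2 ratio of the NMDA + SCF mean was -0.061 for Tpi1, -0.043 for Pdha1 and -0.091 for Dld. It was -0.78 for Bpgm and -0.60 for Hif1a. Without overlap were 8 higher and 4 lower of the 63, beside 7.63 and 6.45% of all genes. These counts became 2 and 7 with upper quartile scaling, 3 and 6 with median-of-ratios scaling, and 5 and 8 without mitochondrial genes. Of these 12 genes, Pdk3, Tigar, Bpgm and Hif1a also differed at least 2-fold between the libraries of list A and those of list B. Tigar, which encodes a fructose bisphosphatase, had 62.7 FPKM in NMDA + PBS replicate 1, 0.138 and 0.123 in NMDA + PBS replicates 2 and 3, and 67.9 to 75.2 FPKM in NMDA + SCF. Tpi1, Pdha1 and Dld, chosen after their values were seen, also differed at least 2-fold between the lists, with list B the higher.

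Next to the 10 genes in the pathway, Pgam1, a mutase between the aldolase and enolase steps, had the highest mean of the list (1228 FPKM). It had 1296, 1175 and 839 FPKM in NMDA + PBS and 1377, 1353 and 1327 FPKM in NMDA + SCF, without overlap on this scale and with overlap under both other scalings and without mitochondrial genes. Bsg, the membrane partner of the lactate transporters, had 12.6, 12.4 and 11.6 FPKM in NMDA + PBS and 17.9, 22.0 and 30.8 FPKM in NMDA + SCF. Its NMDA + SCF libraries were above all NMDA + PBS libraries, also with both scalings and without mitochondrial genes, at a log2 fold change of 0.86 (SE 0.23, adjusted p = 0.536 in limma). Slc16a1, the lactate transporter MCT1, had the highest mean of its class (290.0 FPKM), with overlapping groups.

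Of the pyruvate dehydrogenase class, Pdk2, a kinase that inhibits the complex, had 62.5, 51.7 and 55.8 FPKM in NMDA + PBS and 78.1, 80.3 and 76.1 FPKM in NMDA + SCF. Pdk2 was without overlap under all of these scalings. Pdhb, a subunit of the complex, ranged from 49.9 to 59.7 FPKM in NMDA + PBS and from 65.1 to 77.9 FPKM in NMDA + SCF, and overlapped with upper quartile scaling and without mitochondrial genes. G6pdx, which opens the pentose phosphate pathway, and Pygm, a glycogen phosphorylase, were the remaining genes without overlap in the higher direction, and both overlapped under upper quartile and median-of-ratios scaling. Slc2a13 and Mpc2, a subunit of the mitochondrial pyruvate carrier, were lower without overlap, here and under each scaling. Hif1a, a transcription factor known for driving glycolysis genes, had 16.2, 34.0 and 32.5 FPKM in NMDA + PBS and 13.96, 11.1 and 6.99 FPKM in NMDA + SCF, of which 6.18% came from full-length transcripts. Pygb had the highest mean of the glycogen class (89.2 FPKM). Gapdh and Pgk1, chosen after their values were seen, had no basic coding transcript in both lists, so their values (0 to 1.83 and 1.74 to 9.57 FPKM) are not levels of the full-length mRNAs.

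The genes whose profile over the 6 libraries lay nearest to the mean profile of the 10 genes were Acot8, Actr8 and Plpp3, of the 4475 genes with a mean FPKM of at least 10 outside the 10 genes and the listed genes of glucose metabolism. The distances, on centred log2(FPKM + 1), were 0.17, 0.19 and 0.22, where the median of these genes was 0.86. Within the 10 genes the distance to their own mean profile, of which each is a part, ran from 0.35 for Aldoc to 1.23 for Slc2a1.

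The promoters of the 10 genes were searched for ACGTG on either strand, the letters at the core of the element that hypoxia-inducible factors bind. RefSeq promoter windows (GRCm38.p6, around each annotated start) matched 10 of 10 genes, with 18 windows, some of them overlapping. The letters were in 8 of these 18 windows (44.4%), beside 19.6% of all 32851 windows of that length. Windows of 7 genes held them (Aldoa, Aldoc, Hk1, Hk2, Ldha, Pkm and Slc2a1), and those of Eno1, Eno2 and Pfkl did not. The share of all genes with such a window was not counted, so the count of genes has no value beside it. A match is a description of the sequence and not a binding site.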

How the data were processed

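The authors sequenced poly(A)-selected RNA and deposited FPKM per transcript, for each library alone. The aligner and counter are not given in the sources used here. The submitters' processing notes name mm9, but the positions equal those of GENCODE M21 (GRCm38) for 98.2% of 63313 Ensembl transcripts. A table of the authors gives counts of clean reads (44925938 to 48783182), the percent of bases above a quality score of 30 (92.9 to 94.3%) and the percent of reads kept. Its other 4 columns were not used.

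FPKM was summed per gene over 46933 Ensembl transcripts in all 6 files. Another 7529 belonged to list A alone and 8966 to list B alone. Merged-assembly transcripts without a gene name held 8.85 to 11.4% of FPKM. limma 3.58.1 (R 4.3.3, trend, condition only) was fitted to log2(FPKM + 1) of 25202 genes, two-sided, with Benjamini-Hochberg adjustment over all of them. Tables were made in Python 3.11.15. The thresholds, a 2-fold change and an adjusted p of 0.001, are those of the study's methods. Fold changes on this scale understate the change of genes with low values. Value times length gave whole fragments (within 0.05) for 98.6 to 98.7% of values up to 500 fragments, and 14.1 to 18.2% of clean read pairs were counted. Floors cover counting error only.

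Isozyme ratios of FPKM were tested by exact sign-flip permutation over libraries. The members and lists were chosen with earlier results of these data known. The genes named are the members, isozymes of their steps, the highest gene of each class, pathway genes past an adjusted p of 0.05 or without overlap, and the 3 nearest in profile. Gapdh, Pgk1, Tpi1, Pdha1 and Dld fall outside this rule and were chosen after their values were seen. Values of some isozymes are not reported here. Marker lists of 15 cell types and tissues were made. Alternatives were scalings, a pseudocount of 0.1, a filter at FPKM 1, the replicate block, each library left out, all listed transcripts, the list as a term, voom on fragments and an adjusted p of 0.05. Added after seeing the data were 1 coding transcript per member, full-length coding transcripts for isozymes, marker sums without genes that split by list, and removal of mitochondrial genes.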

Additional observations from a re-analysis of the deposited data

Results flagged for a closer look

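Ldha-211, a retained-intron transcript of Ldha that only list A holds and that entered no sum, was above its only control library. Its FPKM was 23.8 in NMDA + PBS replicate 1 and 35.5, 26.4 and 27.4 in NMDA + SCF replicates 1, 2 and 3, with a mean of 29.8 in NMDA + SCF. All 3 NMDA + SCF libraries were higher, as they were for 23.8% of all genes by their sums over transcripts of both lists. The share of single transcripts with this property was not counted. The fragments numbered 60 in NMDA + PBS replicate 1 and 90, 68 and 70 in NMDA + SCF. Ldha-204, the other retained-intron transcript of Ldha in list A only, did not share this, with 18.3 FPKM in NMDA + PBS replicate 1 and 13.1, 17.5 and 27.8 FPKM in NMDA + SCF. With 1 control library the difference was not tested.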

How the results depend on the processing

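No member passed an adjusted p of 0.05 under any of the fits with a test. Genes past a 2-fold change and an adjusted p of 0.001 numbered 0 to 55 with 1 library left out, the 55 without NMDA + PBS replicate 1, when all controls have list B and all NMDA + SCF libraries list A. Genes at an unadjusted p of 0.05 (2324) numbered 1214 to 4404 over the same fits. The replicate numbers did not pair the libraries (correlations of deviations -0.050, -0.046 and -0.077), and the replicate block gave 0 genes past the thresholds, 1856 at an unadjusted p of 0.05, and 1 member at it.

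Members at an unadjusted p of 0.05 numbered 0 with upper quartile scaling, median-of-ratios scaling or mitochondrial genes removed, 2 with voom (Eno1 and Pkm), 3 with all listed transcripts, and 0 to 2 with 1 library left out. Members without overlap numbered 0 with mitochondrial genes removed and 3 (Aldoc, Eno1 and Ldha) with all listed transcripts, where transcripts of list A count as 0 in list B. The members' median log2 fold change ran from -0.044, without NMDA + PBS replicate 3, to 0.47.

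These log2 fold changes turned sign, and the cause was not tested where none is given. With the list as a term, Slc2a1 was 0.00318, Hk1 0.37 and Ldha 0.10. Without NMDA + PBS replicate 2, Hk1 was 0.18 and Ldha 0.08. Without NMDA + SCF replicate 3, Hk1 was 0.08 and Ldha 0.14. Without NMDA + PBS replicate 3, Pfkl was -0.062 and Eno2 -0.13. With mitochondrial genes removed, Eno2 was -0.060. Ldha was 1.18 with all listed transcripts, through list A, and 0.000124 with voom. With 1 coding transcript, Pfkl was -0.45, Aldoa -0.073, Eno2 -0.19 and Ldha 0.092. With 1 library left out, the lowest or highest values were -0.22 for Hk1, 0.73 for Pfkl, 0.58 for Eno2 and -0.36 for Ldha.

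Isozyme log2 ratios kept their direction in 5 pairs with 1 library left out, all listed transcripts or the highest coding transcript. With 1 library left out, 5 libraries cannot pass the threshold. The ratios then ran from -4.36 to -4.20 (Hk1 to Hk2), 4.37 to 4.55 (Aldoa to Aldoc), 1.18 to 1.44 (Eno1 to Eno2), 2.79 to 3.41 (Ldha to Ldhb), -1.02 to -0.63 (Pfkl to Pfkp) and -0.0055 to 0.33 (Slc2a1 to Slc2a3, -0.017 with all listed transcripts). With all listed transcripts Aldoa to Aldoc was 3.25 and Ldha to Ldhb 4.35. With the highest coding transcript they were -5.75, 0.72, 0.25, 2.74 and -5.02 for the first 5, none past the threshold over the 5 pairs left. These set the full-length Pfkl-201 against the partial Pfkp-209, and the partial Ldha-207 against the full-length Ldhb-201. With full-length coding transcripts, which give a ratio in 2 pairs (smallest adjusted p 0.0625), Hk1 to Hk2 was -5.68 and Ldha to Ldhb turned to -0.65, its group difference to 1.43. Group differences turned sign for Ldha to Ldhb (1.27 with all listed transcripts, 0.31 with the highest coding transcript, -0.80 to 0.75 with 1 library left out) and for Pfkl to Pfkp (-1.37 with the highest coding transcript, -0.17 to 0.81 with 1 library left out). Depth limits the single transcripts, such as Pfkl-201 (4 to 20 fragments).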
